A study of Mus musculus with 20 samples.

Results

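The genes followed here were 10 of the 37620 counted in mouse bone marrow, and they belong to the inflammatory response of myeloid cells. They are the chemokines Cxcl2, Ccl3 and Ccl4, the cytokines Il1b, Il1a and Tnf, the interleukin-1 receptor antagonist Il1rn, the inflammasome sensor Nlrp3, the prostaglandin synthase Ptgs2 and the niacin receptor Niacr1. They were listed by symbol with their expression in these mice already known, so their levels are given as a description, and the counts of those past a threshold support nothing. Splice site choice in these genes did not enter that choice and was tested. The spliced share of their reads was also tested, but it is divided by the reads of the gene, on which the genes were chosen. The other genes of their pathways were tested too, from lists that were also chosen with earlier results of these data known.

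The samples were bulk bone marrow RNA of 20 transplanted mice, 5 in each of 4 groups set by the transgene and the infusion. Congenic (C57BL/6 × 129S4Sv/Jae)F1 recipients of 6 to 12 weeks were lethally irradiated and carried marrow pooled from 2 to 3 donors of 8 to 12 weeks, in which doxycycline chow switched on U2AF1(WT) or U2AF1(S34F) through the rtTA activator for 7 days. On the last 5 of these days the mice received vehicle or sudemycin D6 at 50 mg per kg per day, each as a 4 h infusion into the jugular vein, and marrow RNA was collected 18 h later. All 4 groups therefore shared irradiation, transplantation, doxycycline and the catheter, and the 5 mice of a group are 5 recipients, not 5 independent donors, so that the errors and p-values below measure the spread between recipients.

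U2AF1 is the spliceosome subunit that contacts the AG at the end of an intron, U2AF1(S34F) is a mutant of it found in myeloid malignancies, and sudemycin D6 modulates splicing by binding SF3B1, which recognises the branch point. The deposited counts summed to between 41145892 and 62138138 per mouse on genes and to between 34384214 and 64813149 on splice junctions. U2af1, the mouse gene of U2AF1, was measured in CPM (counts scaled to library size after TMM, with mean ± SD of 5 mice). It stood at 36.1 ± 1.38 CPM in U2AF1(WT) mice given vehicle and at 42.7 ± 3.88 CPM in those given sudemycin D6. In U2AF1(S34F) mice it stood at 51.0 ± 3.32 CPM with vehicle and at 54.6 ± 2.79 CPM with sudemycin D6. These counts do not separate the mutant from the wild-type transcript. The female-specific transcript Xist had 39145 to 78640 counts in each U2AF1(WT) mouse and 1 to 8 in each U2AF1(S34F) mouse, and the Y-linked Ddx3y had 0 counts in each U2AF1(WT) mouse and 2131 to 4512 in each U2AF1(S34F) mouse, so genotype and the sex of the sequenced marrow cannot be told apart in any comparison of genotypes.

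As background, myeloid cells that sense microbes or damage switch on Il1b, Tnf, Cxcl2, Ccl3, Ccl4 and Ptgs2 within a short time through NF-κB and AP-1, families of transcription factors that bind near the start of these genes. Interleukin-1β is made as an inactive precursor that the NLRP3 inflammasome activates through caspase-1, and Il1rn encodes the protein that blocks its receptor. In marrow the chemokine Cxcl2 draws neutrophils out through Cxcr2, Ccl3 and Ccl4 attract monocytes and T cells, and Ptgs2 makes the precursor of prostaglandins.

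Promoters are shown for the 3 chemokines, Il1b and Ptgs2, the genes of the list best known as rapid targets of NF-κB whose levels differed most between groups. Each is the 200 bases before the annotated start in mm9 (NCBI build 37), written 5′ to 3′ on the strand of the gene, with matches to the NF-κB consensus, to AP-1 (TGANTCA), to the cyclic AMP response element (TGACGTCA) and to the TATA box (TATAAA) in capitals. They lie at chr5:91332697-91332896, plus strand for Cxcl2, chr2:129196876-129197075, minus strand for Il1b, chr1:151947054-151947253, plus strand for Ptgs2, chr11:83462858-83463057, minus strand for Ccl3, chr11:83475886-83476085, plus strand for Ccl4.
Cxcl2: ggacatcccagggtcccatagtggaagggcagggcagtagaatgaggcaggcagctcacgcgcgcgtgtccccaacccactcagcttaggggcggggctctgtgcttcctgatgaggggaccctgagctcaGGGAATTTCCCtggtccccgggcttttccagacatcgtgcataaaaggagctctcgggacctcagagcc
Il1b: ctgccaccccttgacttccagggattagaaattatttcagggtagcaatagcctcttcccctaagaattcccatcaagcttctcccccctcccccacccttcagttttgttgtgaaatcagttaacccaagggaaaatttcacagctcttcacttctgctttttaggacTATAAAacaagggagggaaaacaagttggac
Ptgs2: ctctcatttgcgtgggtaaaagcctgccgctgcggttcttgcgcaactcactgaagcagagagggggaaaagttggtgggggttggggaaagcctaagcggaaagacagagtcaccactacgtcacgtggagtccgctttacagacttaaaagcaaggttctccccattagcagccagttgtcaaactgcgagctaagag
Ccl3: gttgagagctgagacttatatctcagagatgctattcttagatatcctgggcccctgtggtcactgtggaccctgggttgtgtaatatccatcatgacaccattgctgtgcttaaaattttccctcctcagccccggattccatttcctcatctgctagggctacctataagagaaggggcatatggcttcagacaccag
Ccl4: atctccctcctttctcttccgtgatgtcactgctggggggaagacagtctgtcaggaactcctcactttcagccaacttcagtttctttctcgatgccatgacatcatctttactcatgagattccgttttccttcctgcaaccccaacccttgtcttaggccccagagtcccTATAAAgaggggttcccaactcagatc
The Cxcl2 window held the NF-κB consensus on both strands in overlapping matches between 69 and 59 bases before the start, and the Nlrp3 window, not shown, held it from 185 to 176 bases before the start. These 2 of 10 genes compare with 6.52% of 22380 protein-coding promoters of the same length that held the consensus on either strand. A TATAAA box stood in 4 of 10 windows, those of Il1b, Il1a, Tnf and Ccl4, against 10% of all promoters, and AP-1 stood in those of Il1a and Il1rn, against 4.8%. The full cyclic AMP element was in none of the 10 and in 1.83% of all promoters, while its core TGACG, not in capitals, stood on the reverse strand of Ptgs2 from 80 to 76 bases before the start and in 17.2% of all promoters. A match is a run of letters in this window and not a measured binding site.

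In the mm9 annotation of GENCODE vM1 the 10 genes are protein-coding. Il1b (ENSMUSG00000027398) lies at chr2:129190306-129196875 and its neighbour Il1a (ENSMUSG00000027399) at chr2:129125346-129135708, both on the minus strand, while Il1rn (ENSMUSG00000026981) lies at chr2:24192373-24207014. Ccl3 (ENSMUSG00000000982) at chr11:83461346-83462857 and Ccl4 (ENSMUSG00000018930) at chr11:83476086-83478185 are neighbours on opposite strands, and Nlrp3 (ENSMUSG00000032691) lies at chr11:59355070-59380458. Cxcl2 (ENSMUSG00000058427) lies at chr5:91332897-91334935, Niacr1 (ENSMUSG00000045502) at chr5:124313581-124315518, Tnf (ENSMUSG00000024401) at chr17:35336326-35338952 and Ptgs2 (ENSMUSG00000032487) at chr1:151947254-151955140.

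With vehicle, U2AF1(WT) marrow had Il1b as by far the most abundant of the 10 genes per length, at 257 ± 55.6 CPM per kilobase of exon (mean ± SD, n = 5). Cxcl2 followed at 69.9 ± 27.0, Niacr1 at 44.1 ± 11.3, Nlrp3 at 43.0 ± 9.76 and Ccl3 at 37.5 ± 4.95 CPM per kilobase. Tnf stood at 25.9, Ptgs2 at 18.8, Il1rn at 18.8 and Ccl4 at 8.84 CPM per kilobase. Il1a had only 2 to 34 counts per mouse over the whole set, 0.144 CPM per kilobase, so its levels carry little information.

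For 7 of the 10 genes the group means had the same order, highest in U2AF1(WT) with vehicle, then U2AF1(WT) with the drug, U2AF1(S34F) with vehicle and lowest in U2AF1(S34F) with the drug. Cxcl2 differed in that the sudemycin-treated U2AF1(S34F) mice stood above the vehicle-treated ones, Ccl4 in that vehicle-treated U2AF1(S34F) mice stood just above sudemycin-treated U2AF1(WT) mice, and Il1a followed no such order. Neighbouring groups in the order were often not distinct. The ranges of the first and second group overlapped in 5 of the 10 genes, those of the second and the next in 8, and those of the last pair in 9.

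**Figure D1:**
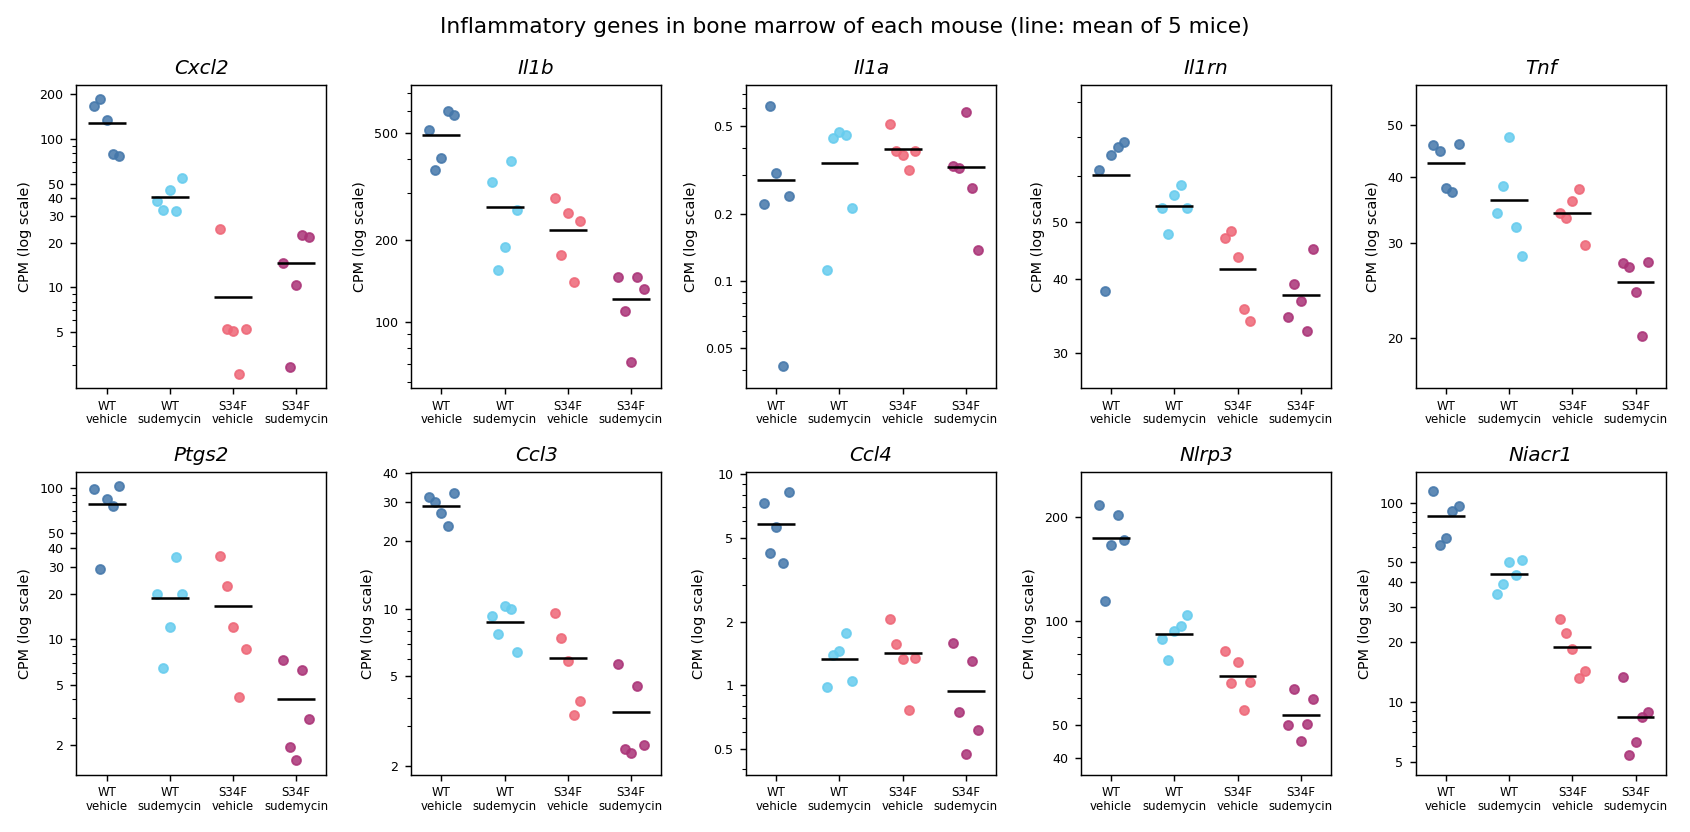
CPM of each of the 10 genes on a log axis, with a point for each mouse and a line for the mean of the 5 mice of a group. Vehicle-treated U2AF1(WT) mice sit highest for every gene but Il1a, and sudemycin-treated U2AF1(S34F) mice sit lowest for every gene but Il1a and Cxcl2.

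Of the chemokines, Cxcl2, the neutrophil attractant, measured 165, 185, 134, 79.2 and 76.2 CPM in the 5 vehicle-treated U2AF1(WT) mice. In sudemycin-treated U2AF1(WT) mice it measured 38.1, 33.4, 45.4, 32.5 and 54.2 CPM. All of these were below the lowest vehicle-treated mouse. In vehicle-treated U2AF1(S34F) mice it measured 24.5, 5.24, 5.09, 2.62 and 5.20 CPM, and in sudemycin-treated ones 14.7, 2.89, 10.3, 22.5 and 22.0 CPM. Every U2AF1(S34F) mouse lay below every U2AF1(WT) mouse, and the drug groups within U2AF1(S34F) overlapped fully. The log2 fold change with sudemycin D6 was −1.67 ± 0.26 (SE) in U2AF1(WT) and 0.76 ± 0.67 in U2AF1(S34F) mice. With the genotype it was −3.92 ± 0.66 under vehicle, which is 15.1-fold lower, and −1.49 ± 0.41 under sudemycin D6.

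Ccl3, which encodes MIP-1α, measured 31.5, 29.8, 26.7, 23.3 and 32.6 CPM in vehicle-treated U2AF1(WT) mice and 9.29, 7.75, 10.3, 9.96 and 6.45 CPM in sudemycin-treated ones, with no overlap. The vehicle-treated U2AF1(S34F) mice stood at 9.60, 7.44, 5.87, 3.38 and 3.87 CPM, within or below the range of the sudemycin-treated U2AF1(WT) mice. Under sudemycin D6 the U2AF1(S34F) mice reached 5.69, 2.37, 2.28, 4.54 and 2.48 CPM, all below every U2AF1(WT) mouse. Ccl4, which encodes MIP-1β and lies beside Ccl3 on chromosome 11, was much scarcer, at 7.31, 4.21, 5.62, 3.79 and 8.22 CPM in vehicle-treated U2AF1(WT) mice and between 0.471 and 2.07 CPM in each of the other 15 mice. The latter 3 groups overlapped one another. The log2 fold changes with sudemycin D6 in U2AF1(WT) mice were −1.73 ± 0.14 for Ccl3 and −2.12 ± 0.26 for Ccl4, beside −2.26 ± 0.25 and −2.03 ± 0.27 with U2AF1(S34F) under vehicle. Within U2AF1(S34F) mice the drug values were smaller in size, −0.79 ± 0.34 and −0.56 ± 0.35.

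Il1b, the interleukin-1β precursor, measured 509, 363, 402, 599.7 and 582 CPM in vehicle-treated U2AF1(WT) mice and 329, 155, 189, 394 and 259 CPM in sudemycin-treated ones. The highest treated mouse exceeded the lowest vehicle mouse, so these groups overlapped. In U2AF1(S34F) mice it measured 286, 176, 252, 140.1 and 236 CPM with vehicle and 146, 109, 71.1, 146 and 132 CPM with sudemycin D6. Every vehicle-treated U2AF1(S34F) mouse lay below every vehicle-treated U2AF1(WT) mouse. The 4 log2 fold changes were −0.90 ± 0.24 and −0.85 ± 0.23 with the drug in U2AF1(WT) and U2AF1(S34F) mice, and −1.18 ± 0.20 and −1.14 ± 0.26 with the genotype under vehicle and under sudemycin D6.

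Il1rn, the secreted and intracellular antagonist of the interleukin-1 receptor, varied less than Il1b. It measured 61.4, 38.3, 65.2, 67.3 and 68.5 CPM in vehicle-treated U2AF1(WT) mice, where mouse 2 stood apart from the other 4, and 47.8 to 57.9 CPM in sudemycin-treated ones. The U2AF1(S34F) mice had 33.95 to 48.3 CPM with vehicle and 32.7 to 45.1 CPM with sudemycin D6. Its log2 fold change with the drug was −0.19 ± 0.14 in U2AF1(WT) and −0.15 ± 0.11 in U2AF1(S34F) mice. Tnf, the tumour necrosis factor gene, varied over a similarly narrow range, at 37.5 to 45.9 CPM in vehicle-treated U2AF1(WT) mice, 28.4 to 47.5 CPM in sudemycin-treated U2AF1(WT) mice and 29.7 to 37.9 CPM in vehicle-treated U2AF1(S34F) mice. Sudemycin-treated U2AF1(S34F) mice had 27.6, 27.0, 24.4, 20.1 and 27.7 CPM of Tnf, below every other mouse of the series. Il1a, the other agonist of that receptor, showed no pattern between groups at 0.0415 to 0.612 CPM.

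Ptgs2, which encodes cyclooxygenase-2, varied widely within groups. It measured 98.4, 29.1, 84.1, 75.6 and 102 CPM in vehicle-treated U2AF1(WT) mice and 19.8, 6.41, 12.1, 35.0 and 19.8 CPM in sudemycin-treated ones, which overlapped through vehicle-treated mouse 2. Among U2AF1(S34F) mice it measured 35.2, 22.5, 12.1, 4.17 and 8.61 CPM with vehicle and 7.26, 1.93, 1.59, 6.27 and 2.98 CPM with sudemycin D6. The log2 fold change was near −2 in each of the 4 comparisons, at −2.08 ± 0.46 and −2.03 ± 0.62 with the drug and −2.25 ± 0.58 and −2.22 ± 0.50 with the genotype. From the first of these groups to the last it was −4.26 ± 0.54, that is 19.2-fold lower, the widest span of the 10 genes.

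Nlrp3, the sensor that assembles the inflammasome, measured 217, 115, 166, 203 and 172 CPM in U2AF1(WT) mice given vehicle and 77.0 to 104 CPM in those given sudemycin D6, without overlap. It measured 55.1 to 81.7 CPM in vehicle-treated and 44.8 to 63.5 CPM in sudemycin-treated U2AF1(S34F) mice. Niacr1, the receptor for niacin and ketone bodies on neutrophils and macrophages, measured 114, 61.1, 66.6, 90.2 and 95.5 CPM in vehicle-treated U2AF1(WT) mice and 34.6, 38.8, 50.4, 43.5 and 51.3 CPM in sudemycin-treated ones. The U2AF1(S34F) mice had 26.1, 22.2, 18.3, 13.2 and 14.3 CPM with vehicle and 13.3, 5.38, 6.25, 8.35 and 8.85 CPM with sudemycin D6. Niacr1 thus separated the genotypes without overlap under either treatment, by −2.20 ± 0.22 under vehicle and −2.37 ± 0.22 under sudemycin D6 on the log2 scale. In bulk marrow, fewer cells of a type and less RNA per cell cannot be told apart for any of these genes.

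Across the 10 genes the median log2 fold change was −0.97 with sudemycin D6 in U2AF1(WT) mice, −0.50 with the drug in U2AF1(S34F) mice, −1.69 with U2AF1(S34F) under vehicle and −0.96 under sudemycin D6, while the medians of all genes tested lay between −0.03 and 0.00. By edgeR at FDR<10%, 7 of the 10 were lower with sudemycin D6 in U2AF1(WT) mice, beside 1.89% of 14763 genes, and 5 lay below without overlap, beside 2.26%. Within U2AF1(S34F) mice 5 were lower, beside 5.85%, and 1, Tnf, did not overlap, beside 3.97%. With the genotype 9 were lower under vehicle, beside 19.8%, and 8 under sudemycin D6, beside 19.6%, of which 6 and 7 did not overlap, beside 10.3% and 9.3%. Between the extreme groups 9 were lower, beside 25.1%, and 8 did not overlap, beside 12.3%. Because the genes were chosen on these levels, nothing is read from these counts. The calls also moved with the mice: leaving out single mice gave 5 to 8 genes lower in U2AF1(WT) and 2 to 5 in U2AF1(S34F) mice.

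**Figure D2:**
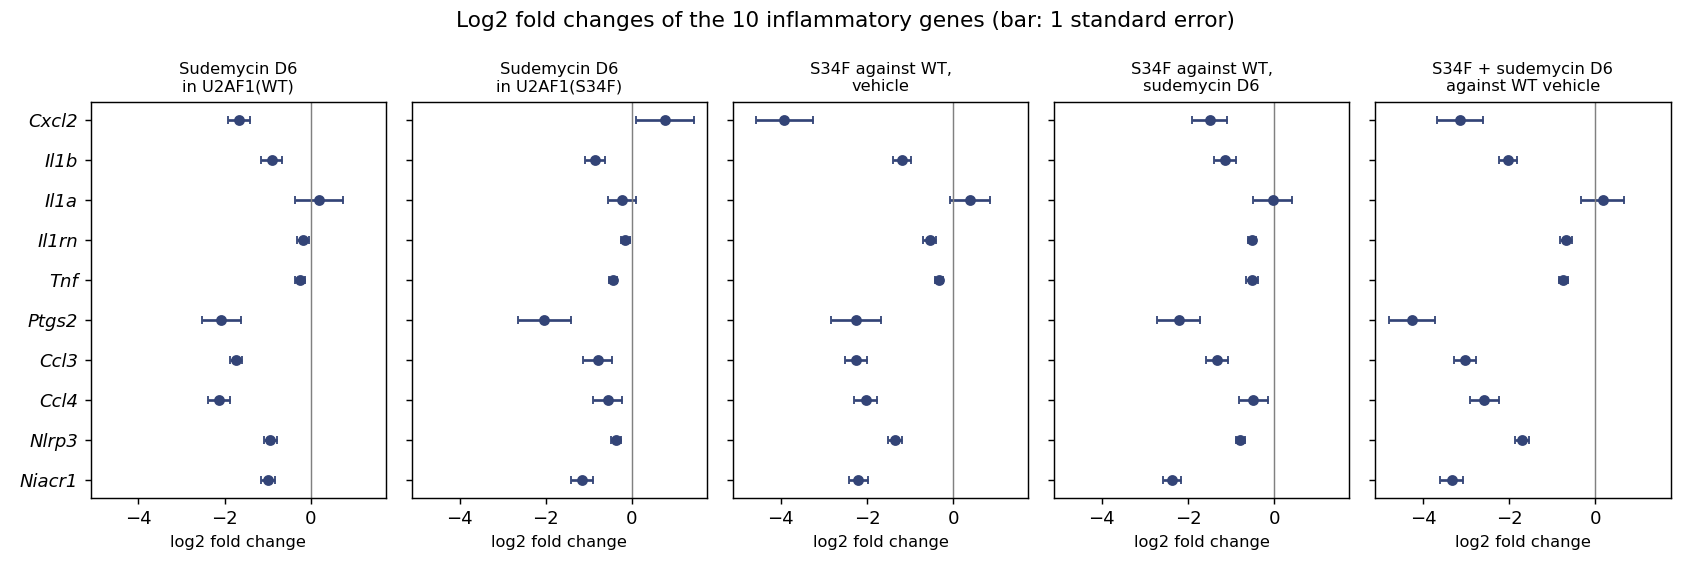
Log2 fold change of each of the 10 genes in the 5 comparisons, with a bar of 1 standard error on either side. Ptgs2 lies near −2 in each of the first 4 panels and at −4.26 in the last, Il1rn lies between −0.67 and −0.15 and Tnf between −0.74 and −0.25, and Cxcl2 is above 0 only with sudemycin D6 in U2AF1(S34F) mice.

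The difference between the drug effects of the genotypes was fitted on all 20 mice. It was 2.42 ± 0.76 on the log2 scale for Cxcl2, 1.54 ± 0.44 for Ccl4, 0.93 ± 0.38 for Ccl3 and 0.56 ± 0.20 for Nlrp3, positive where the level was less reduced, or not reduced, in U2AF1(S34F) mice. For the other 6 genes it lay between −0.45 and 0.04. Of the 10 genes 0 passed FDR<10% for this interaction by edgeR. Over all genes 2 of 15392 passed FDR<10% for this interaction, 0.013%, with 1144 under an unadjusted p of 0.05 and 116 called by DESeq2. One of them was Atf3, a feedback repressor of inflammatory transcription that is not among the 10, at 2.38 ± 0.30 (edgeR FDR = 0.000994). Atf3 stood at 68.6 ± 16.4 CPM in vehicle-treated and 13.1 ± 3.35 CPM in sudemycin-treated U2AF1(WT) mice, against 4.76 ± 1.16 and 4.73 ± 1.26 CPM in U2AF1(S34F) mice.

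The other genes of these pathways were taken from 11 lists of 169 genes, of which 150 to 152 passed the filter on low counts. The lists were chosen with earlier results of these data known, so the shares below are a description. With sudemycin D6 in U2AF1(WT) mice 23 of 152 fell and 6 rose, that is 15.1% and 3.95%, beside 1.89% and 1.18% of all genes. Within U2AF1(S34F) mice 13 of 150 fell and 15 rose, 8.67% and 10%, beside 5.85% and 4.94%. With U2AF1(S34F) 55 of 150 fell and 18 rose under vehicle, 36.7% and 12%, beside 19.8% and 19.7%. Under sudemycin D6 62 fell and 19 rose, 41.3% and 12.7%, beside 19.6% and 17.2%. Between the extreme groups 68 of 151 fell and 28 rose, 45.0% and 18.5%, beside 25.1% and 25.1%. The 29 calls with the drug in U2AF1(WT) mice rested in part on single mice, with 13 without vehicle mouse 1, 17 without vehicle mouse 3 and 18 each without vehicle mouse 5, sudemycin mouse 8 or sudemycin mouse 12. The 28 in U2AF1(S34F) mice became 18 without sudemycin mouse 10. The comparisons share groups and are not independent of one another. The shares of all genes given here are also those to set beside the counts of single pathway and marker lists below.

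Of the NF-κB factors and their inhibitors 13 of 18 fell with the genotype under vehicle, beside 19.8% of all genes. Under sudemycin D6 13 of 18 fell, beside 19.6%. In either comparison 0 rose by edgeR, by DESeq2 or at an unadjusted p of 0.05. Nfkbiz, the inducible IκBζ needed for a second wave of targets, averaged 276 ± 22.7 CPM in vehicle-treated and 146 ± 25.1 CPM in sudemycin-treated U2AF1(WT) mice, and 76.1 ± 17.3 and 63.8 ± 7.41 CPM in U2AF1(S34F) mice. It fell by 1.87 ± 0.14 on the log2 scale with U2AF1(S34F) under vehicle (FDR = 1.89e-06) and by 0.94 ± 0.11 with sudemycin D6 in U2AF1(WT) mice (FDR = 0.00103). Tnfaip3, the A20 ubiquitin editor that stops NF-κB signalling, fell by 1.64 ± 0.15 and 0.84 ± 0.16 in the same comparisons, and the nuclear IκB Nfkbid fell by 1.29 ± 0.10 with the genotype under vehicle. With the drug in U2AF1(S34F) mice 2 of 18 fell and 2 rose, among them Bcl3, a nuclear IκB that rose by 0.94 ± 0.12 (FDR = 0.00158).

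The feedback and mRNA decay list holds genes of signalling feedback as well as genes that act on cytokine mRNA. It gave 10 of 15 lower with U2AF1(S34F) under vehicle, beside 19.8% of all genes. Under sudemycin D6 it gave 10 lower and 1 higher, beside 19.6% and 17.2%. Zfp36, tristetraprolin, which promotes decay of Tnf and Cxcl2 mRNA, averaged 601 ± 164 CPM in vehicle-treated U2AF1(WT) and 159 ± 22.6 CPM in vehicle-treated U2AF1(S34F) mice and fell by 1.93 ± 0.18 (FDR = 1.89e-05). The phosphatase Dusp1 fell by 2.15 ± 0.26 (FDR = 0.000266) and Atf3 by 3.85 ± 0.20 (FDR = 4.43e-07), and both also stand on the list of immediate-early genes below. With sudemycin D6 in U2AF1(WT) mice 3 fell, Atf3 by 2.41 ± 0.20, Dusp1 by 1.14 ± 0.19 and the ribonuclease gene Zc3h12a by 0.70 ± 0.15. In U2AF1(S34F) mice 2 of these 15 genes rose with the drug, the decay factor Zfp36l1 by 0.40 ± 0.12 and the mRNA-binding Elavl1 by 0.16 ± 0.05.

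Among other chemokines and cytokines, oncostatin M (Osm), a cytokine of neutrophils and macrophages, averaged 367 ± 93.0 CPM in vehicle-treated and 193 ± 14.01 CPM in sudemycin-treated U2AF1(WT) mice, and 62.5 ± 24.9 and 53.5 ± 13.1 CPM in U2AF1(S34F) mice. It fell by 2.57 ± 0.27 with the genotype under vehicle (FDR = 0.000173) and by 0.95 ± 0.16 with the drug in U2AF1(WT) mice (FDR = 0.0102). Ccrl2, an atypical receptor that binds chemerin and was listed with the chemokines, fell by 2.16 ± 0.30 and 0.85 ± 0.18. Of the 8 chemokine genes tested 3 fell with the drug in U2AF1(WT) mice. The U2AF1(S34F) mice gave 2 lower, where Ccl6 fell by 0.84 ± 0.18 and Ccl5 by 0.83 ± 0.23 while Ccl9 rose by 0.55 ± 0.12. The neutrophil chemokine receptor Cxcr1 fell by 1.32 ± 0.23 with sudemycin D6 in U2AF1(WT) mice (FDR = 0.0107), 1 of 2 receptors lower of 9.

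Receptors for microbial and interleukin-1 signals did not all move with the 10 genes. Trem1 and Clec4e, which amplify inflammation in myeloid cells, fell by 0.80 ± 0.16 and 0.80 ± 0.15 with sudemycin D6 in U2AF1(WT) mice and by 1.36 ± 0.11 and 1.29 ± 0.11 with U2AF1(S34F) under vehicle. Of the 17 pattern recognition receptors 5 fell and 2 rose with the drug in U2AF1(WT) mice, beside 1.89% and 1.18% of all genes. With the genotype under vehicle 7 fell and 3 rose, beside 19.8% and 19.7%. Within U2AF1(S34F) mice 4 of the 17 rose with the drug, beside 4.94%, including the RNA sensor Tlr7, by 0.79 ± 0.13, and the lipopolysaccharide co-receptor Cd14, by 0.61 ± 0.20. There 0 fell by edgeR, beside 3 at an unadjusted p of 0.05 and 1 by DESeq2. Of the interleukin-1 family and its receptors 2 of 17 rose with the drug in U2AF1(WT) mice, beside 1.18% of all genes. In U2AF1(S34F) mice 3 of 17 rose, beside 4.94%. By edgeR 0 fell in either genotype, beside 0 and 2 at an unadjusted p of 0.05 and 0 and 1 by DESeq2. The decoy receptor Il1r2 averaged 60.6 ± 6.04 CPM in vehicle-treated and 91.4 ± 10.9 CPM in sudemycin-treated U2AF1(WT) mice, and 47.6 ± 10.2 and 85.6 ± 29.4 CPM in U2AF1(S34F) mice. Il1r2 rose by 0.57 ± 0.10 (FDR = 0.0112) and 0.84 ± 0.23 (FDR = 0.0577) with the drug. The alarmin receptor Il1rl1 rose by 0.83 ± 0.14 with the drug in U2AF1(WT) mice.

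The inflammasome list split with the genotype, 4 of 15 lower and 6 higher under each treatment. These are 26.7% and 40%, beside 19.8% and 19.7% of all genes under vehicle and 19.6% and 17.2% under sudemycin D6. Naip5 and Nlrc4, which sense flagellin together, fell by 1.63 ± 0.12 and 1.28 ± 0.15 under vehicle, whereas the sensor gene Nlrp1a rose by 0.97 ± 0.16. Naip5 and Nlrp1a have close copies beside them in the genome, so that their counts are uncertain. With sudemycin D6 in U2AF1(WT) mice 2 of 15 fell, the DNA sensor Aim2 by 0.45 ± 0.08 and Naip5 by 0.44 ± 0.08. Of the prostaglandin and leukotriene list Alox15, a lipoxygenase of eosinophils and macrophages, fell with the genotype under vehicle by 1.36 ± 0.16 and with the drug in U2AF1(WT) mice by 0.67 ± 0.17. Ptgs1, the constitutive cyclooxygenase, rose by 0.55 ± 0.13 with the drug in U2AF1(WT) mice (FDR = 0.0501), from 114 ± 13.4 to 169 ± 32.1 CPM, where Ptgs2 had the lower level. The TNF pathway gave 0 of 17 genes past the threshold with the drug in U2AF1(WT) mice by edgeR and by DESeq2, with 3 lower and 1 higher at an unadjusted p of 0.05, and 2 of 16 lower in U2AF1(S34F) mice. With the genotype under vehicle 3 of 16 fell, 18.8% beside 19.8% of all genes. Among them was the receptor Tnfrsf1b, lower by 0.76 ± 0.11. Of the 6 partners of the niacin receptor tested 2 fell and 3 rose in that comparison, beside 19.8% and 19.7% of all genes. The lactate transporter Slc16a3 was lower by 0.72 ± 0.11 and the G protein subunit Gnai3 higher by 0.41 ± 0.09.

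Some of the calls named above depended on the setting or on a single mouse. With the drug in U2AF1(WT) mice Alox15 was called in 9 of 17 refits, Ptgs1 in 13 and Zc3h12a and Trem1 in 16 each. With the drug in U2AF1(S34F) mice Elavl1 was called in 7 of 17 refits, Cd14 in 8, Zfp36l1 in 11 and Ccl5 and Il1r2 in 13 each. The sign of each of these values was the same in every refit, and the other genes named with a value kept their call in every refit that tested them.

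**Figure D3:**
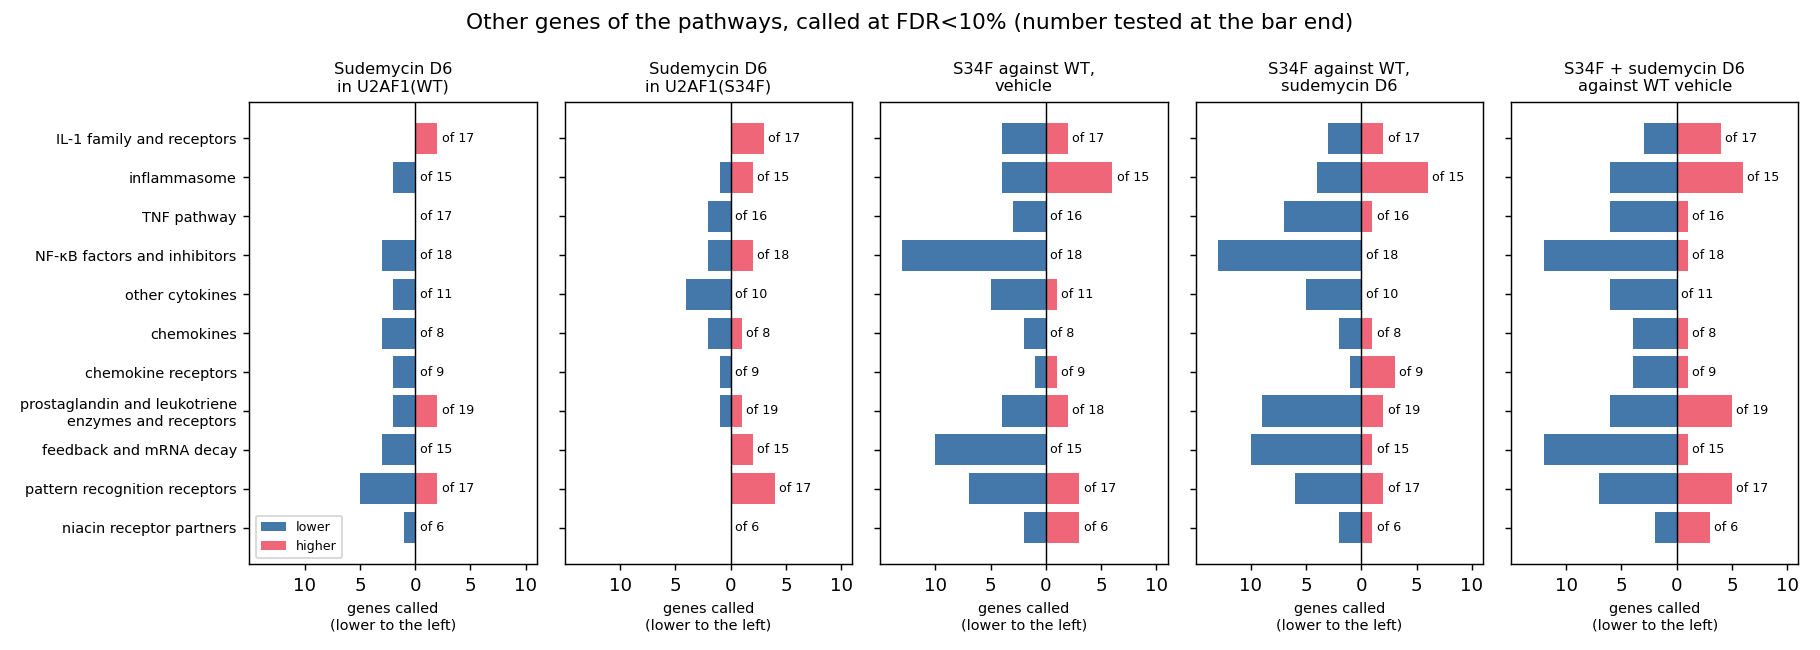
Number of genes of each pathway list that fell (bars to the left) or rose (bars to the right) at FDR<10% in each comparison, with the number tested printed beside each bar. With the genotype under vehicle the NF-κB list shows 13 of 18 genes lower and 0 higher, and with the drug in U2AF1(S34F) mice the pattern recognition list shows 0 lower and 4 higher.

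Values of other cell types and of rapid stress responses, on lists also chosen with earlier results known, moved alongside. The 8 immediate-early genes, among them Fos, Egr1 and Jun, which cells switch on within minutes of handling, summed to between 2048 and 4407 CPM in vehicle-treated U2AF1(WT) mice, with a median of 3622 CPM. The median sum was 1749 CPM in sudemycin-treated U2AF1(WT) mice, 918 CPM in vehicle-treated and 726 CPM in sudemycin-treated U2AF1(S34F) mice, the same order as for 7 of the 10 genes. Of the 8, 6 fell with sudemycin D6 in U2AF1(WT) mice, beside 1.89% of all genes, and 3 in U2AF1(S34F) mice, beside 5.85%. With the genotype 8 fell under either treatment, beside 19.8% under vehicle and 19.6% under sudemycin D6. Egr1, for example, fell by 2.27 ± 0.29 with the drug in U2AF1(WT) mice and by 2.61 ± 0.35 with the genotype under vehicle. U2AF1(WT) vehicle mouse 2, which had the lowest Il1b, Il1rn, Ptgs2, Nlrp3 and Niacr1 of its group, also had the lowest immediate-early sum of that group, while its Cxcl2 was the highest of all mice. The part of handling in the levels of the 10 genes was not tested.

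**Figure D4:**
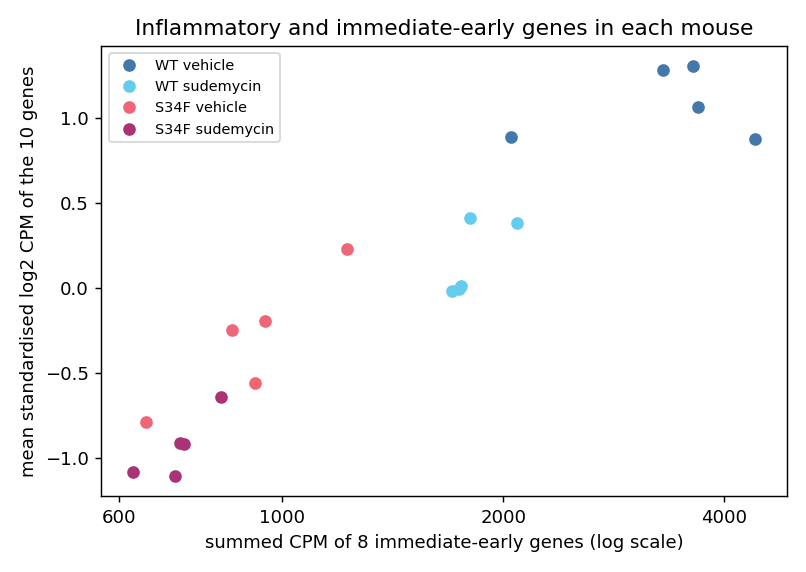
Mean standardised log2 CPM of the 10 genes against the summed CPM of 8 immediate-early genes on a log axis, with a point for each of the 20 mice coloured by group. The groups run from vehicle-treated U2AF1(WT) mice towards the top right to sudemycin-treated U2AF1(S34F) mice towards the bottom left, and single mice of some neighbouring groups overlap on each axis.

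The mean standardised log2 CPM of the 10 genes and of the 8 immediate-early genes had a Pearson correlation of 0.955 over the 20 mice and of 0.722 once group means were removed, points that share libraries and depth. After group means were removed, Ptgs2, Niacr1, Ccl3 and Ccl4 correlated with the mean of the other 9 at 0.802, 0.797, 0.766 and 0.754, whereas Tnf and Il1a did so at −0.05 and −0.18. Of 12194 other genes with a mean of at least 1 CPM, those most like this mean over 20 mice were 2210403K04Rik (r = 0.975), Ppp1r15a (0.971), Ier3 (0.964), Gm11870 (0.963) and Nfkbiz (0.959). With group means removed they were Ppp1r15a (0.895), Btg1 (0.842), Rpl10-ps2 (0.837), Slc7a11 (0.829) and Upb1 (0.820). Ppp1r15a, the only gene on both lists, encodes GADD34, which ends the integrated stress response, and averaged 76.0 ± 9.61, 34.8 ± 5.16, 15.7 ± 6.24 and 11.5 ± 3.51 CPM in the 4 groups in the order given above.

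The summed level of 10 neutrophil markers had medians of 68610 and 66101 CPM in vehicle- and sudemycin-treated U2AF1(WT) mice and of 102441 and 103052 CPM in the corresponding U2AF1(S34F) mice, and none was at 0. With the genotype 4 of 10 rose under vehicle, beside 19.7% of all genes, S100a8 by 1.26 ± 0.20 and S100a9 by 0.79 ± 0.16 among them. Only these 2 of 10 rose under sudemycin D6, which is 20% beside 17.2%, and S100a9 was called there in 18 of 19 refits. The median log2 fold change over the 10 was 0.29 under vehicle and 0.01 under sudemycin D6. With the drug 0 of 10 passed in either genotype by edgeR, by DESeq2 or at an unadjusted p of 0.05. The 6 monocyte markers summed to medians of 2161, 1861, 2055 and 2610 CPM in the same order, with ranges of 1866 to 2779, 1752 to 2062, 1504 to 2308 and 2066 to 2863 CPM. Of these 3 fell with the genotype under vehicle, Klf4, Csf1r and Ms4a6c, whereas under sudemycin D6 Ccr2 and F13a1 rose, by 1.36 ± 0.14 and 0.60 ± 0.15, and Csf1r fell. The fall of Csf1r under sudemycin D6 was called in 15 of 19 refits, and that of Ms4a6c under vehicle in 18 of 19. The drug in U2AF1(S34F) mice gave 1 of 6 higher, beside 3 by DESeq2. With the drug in U2AF1(WT) mice 0 fell by edgeR, beside 4 at an unadjusted p of 0.05 and 1 by DESeq2. Basophil and mast cell markers had median sums of 289, 129.5, 161 and 124 CPM, and 3 of 5 fell with the drug in U2AF1(WT) mice, of which Ms4a2 was called in 10 of 17 refits. The part of cell composition in the levels of the 10 genes was not tested.

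Splice site choice within the genes was tested next, because U2AF1 reads the end of the intron. The ratio of junctions at a shared site was taken after adding 0.5 to each side, so that it moves with the level of the gene where a side has few or 0 reads. The 3′ splice sites that these results turn on are shown as the last 20 bases of the intron and the first 3 of the exon in mm9, 5′ to 3′ on the strand of the gene, with the base before the AG and the AG itself in capitals. Each is named by the gene and by the position at the exon end of the intron, on chromosome 2 for Il1b (minus strand) and chromosome 11 for Ccl4 and Nlrp3 (plus strand).
Il1b 129193894: actgcctggtttctccaCAGggc
Il1b 129191826: gactcctctcctttctcCAGtga
Il1b 129191845: ttgctgttcccttgaccCAGact
Ccl4 83476961: accctcacttttccttcCAGtgg
Ccl4 83477011: tctcttacacctcccggCAGctt
Nlrp3 59371885: ttgttccctctgcatggAAGgtt
Over the 46 annotated 3′ splice sites of these genes with at least 20 junction reads, the base before the AG was C in 34, which carried 87.7% of the reads, T in 9 with 8.64%, A in 3 with 3.66% and G in 0. The 3 sites with A were all in Nlrp3, 59371885 among them.

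Of 66 junction choices in the 10 genes, 0 passed FDR<10% with sudemycin D6 in U2AF1(WT) mice by limma, beside 0.635% of 162701 choices in the whole table, with 8 of the 66 under an unadjusted p of 0.05 and 10 by the exact permutation test. The genotype under sudemycin D6 likewise gave 0 of 66, beside 1.63%, with 7 under an unadjusted p of 0.05 and 6 by the exact permutation test. The other 3 comparisons gave 1 each, beside 0.586% for the drug in U2AF1(S34F) mice, 2.01% for the genotype under vehicle and 3.67% for the extreme groups. Choices with few reads limit what could be seen at this depth. In simulated data the limma test recovered 148 of 200 changed choices at a log2 change of 2 but 2 of 200 at 1. The simulation used only 62690 choices with more reads on each side than the test required. These rates therefore do not apply to choices of the 10 genes with few reads. Changes of the smaller size would thus mostly be missed.

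By limma, the choice called with the genotype under vehicle was at the Il1b 3′ splice site 129193894, where the annotated intron 129193894 to 129195439 competes with introns from other donors. In vehicle-treated U2AF1(WT) mice the annotated intron took 99.2, 99.9, 98.9, 98.3 and 99.95% of the reads at this site, with 28, 2, 23, 82 and 2 reads on the others. In vehicle-treated U2AF1(S34F) mice 0 of 7595 reads fell on the others, which allows a share of up to 0.0395%, a limit that covers counting error only, against 137 of 17544 in vehicle-treated U2AF1(WT) mice, 0.781%. The log2 ratio was higher with U2AF1(S34F), but with 0 competing reads in that group its size and error depend on the offset and the depth and are not given (limma FDR = 0.00681, exact two-sided permutation p = 0.00794 for n = 5 against 5, the smallest this design can give). Without U2AF1(WT) vehicle mouse 4, which held 82 of the 137 reads, the FDR was 0.276. The site also entered the main test through the competing reads of U2AF1(WT) mice, whose Il1b level was higher under either treatment. The FDR and the permutation p are therefore given as a description and support no change in splice site choice. Under sudemycin D6 other introns had 62 of 8101 reads in 3 of 5 U2AF1(WT) mice and 1 of 4281 in U2AF1(S34F) mice.

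The other 2 calls rested on few reads. At Ccl4 83476961 the annotated intron from 83476240 took 99.4 ± 0.884% of the reads in vehicle-treated U2AF1(WT) and 93.5 ± 7.81% in sudemycin-treated U2AF1(S34F) mice (−3.15 ± 0.86, FDR = 0.0356). The competing introns, however, had only 3 reads in the former group, beside 566 on the annotated intron, and 6 in the latter, beside 120. They had 12 beside 133 in sudemycin-treated U2AF1(WT) and 9 beside 143 in vehicle-treated U2AF1(S34F) mice. A lower share of the annotated intron was thus not limited to mice with both mutation and drug. The Ccl4 call was lost without U2AF1(WT) vehicle mouse 1 (FDR = 0.116) or 5 (FDR = 0.141) and without U2AF1(S34F) sudemycin mouse 9 (FDR = 0.130). At the Il1b donor 129195809 the drug comparison in U2AF1(S34F) mice gave FDR = 0.0543 for an intron without a read in any of the 10 mice, so that the value came from the offset of 0.5 and the reads of the other intron alone, and the call was lost in 6 of 10 fits that left out a mouse. When a mean of at least 1 read per mouse on both sides was required in the compared mice, a setting chosen after seeing the data, both of these were no longer tested. The Il1b site 129193894 was still called, but it passed this filter through the vehicle-treated U2AF1(WT) mice alone. The vehicle-treated U2AF1(S34F) mice had 0 competing reads there, so this setting is no check of that call.

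Further alternatives in the 10 genes did not pass the threshold in any comparison. Il1b has a pair of annotated 3′ splice sites 19 bases apart, 129191826 with 17638 reads over all mice and 129191845 with 682, and the share of the latter averaged 2.90 ± 2.73, 6.90 ± 6.81, 2.59 ± 1.47 and 1.03 ± 1.77% in the 4 groups in the order above. It was 0 in 2 of the 5 vehicle-treated U2AF1(WT) mice. The Nlrp3 intron 59365443 to 59371885, which passes over the 3′ splice site at 59369250, took 10.6 ± 2.30% of its donor in vehicle-treated U2AF1(WT), 5.75 ± 2.73% in sudemycin-treated U2AF1(WT), 9.92 ± 3.58% in vehicle-treated U2AF1(S34F) and 9.58 ± 3.01% in sudemycin-treated U2AF1(S34F) mice. Ccl4 has a further 3′ splice site at 83477011, not in the annotation and 50 bases downstream of 83476961, with 99 reads. As for first exons, 3288 of 3319 reads into Il1rn 24201040 came from the donor 24200888, and 1457 of 1495 into Nlrp3 59356311 from 59355105, without a call. Niacr1 has 1 exon and no junction.

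The reads on annotated junctions per read of the gene were compared as a measure of how far the RNA of each gene was spliced. A read pair can cross more than 1 junction, and reads inside introns lower the value where they are counted with the gene, which the sources used here do not state. Over 12301 genes the median was 0.906, 0.949, 0.936 and 0.918 in the 4 groups. Nlrp3 stood at 0.406, 0.385, 0.392, 0.487 and 0.439 in vehicle-treated U2AF1(WT) mice. In sudemycin-treated U2AF1(WT) mice it stood at 0.535, 0.578, 0.514, 0.575 and 0.615, above every vehicle-treated mouse of that genotype. It was 0.484 to 0.576 and 0.510 to 0.605 in vehicle- and sudemycin-treated U2AF1(S34F) mice.

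Nlrp3 rose in this measure by 0.42 ± 0.07 on the log2 scale with sudemycin D6 in U2AF1(WT) mice (limma FDR = 0.0302), beside 0.285% of genes called, and by 0.33 ± 0.07 with U2AF1(S34F) under vehicle (FDR = 0.00702), beside 6.02%. Between the extreme groups it rose by 0.42 ± 0.07 (FDR = 0.000164), beside 3.33%. The call in U2AF1(WT) mice was lost without vehicle mouse 3 (FDR = 0.115), and the other 2 held whichever mouse was left out. Groups with a lower Nlrp3 level than vehicle-treated U2AF1(WT) mice had more junction reads per read. The gene reads that give the level are the divisor of this measure, so it is not independent of the level. Cxcl2 went the other way with the drug in U2AF1(WT) mice, from 0.336 ± 0.041 to 0.237 ± 0.036 (−0.51 ± 0.11, FDR = 0.0973), a call lost in 8 of 10 fits that left out a mouse.

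Ptgs2 fell in junction reads per read with U2AF1(S34F) under vehicle, from 0.531 ± 0.052 to 0.413 ± 0.061 (−0.37 ± 0.10, FDR = 0.0437), but not without U2AF1(WT) vehicle mouse 4 (FDR = 0.104) or U2AF1(S34F) vehicle mouse 3 (FDR = 0.103). Il1b rose with U2AF1(S34F) under sudemycin D6, from 0.657 ± 0.032 to 0.778 ± 0.066 (0.24 ± 0.05, FDR = 0.0135), beside 9.76% of genes called, and this held in every fit that left out a mouse. The sudemycin-treated U2AF1(WT) mice had 0.607 to 0.695 and the sudemycin-treated U2AF1(S34F) mice 0.692 to 0.840, which overlapped. With the drug in U2AF1(S34F) mice 0 of 9 genes passed the threshold, beside 0.0163%, with 1 under an unadjusted p of 0.05 and 0 by the exact permutation test.

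**Figure D5:**
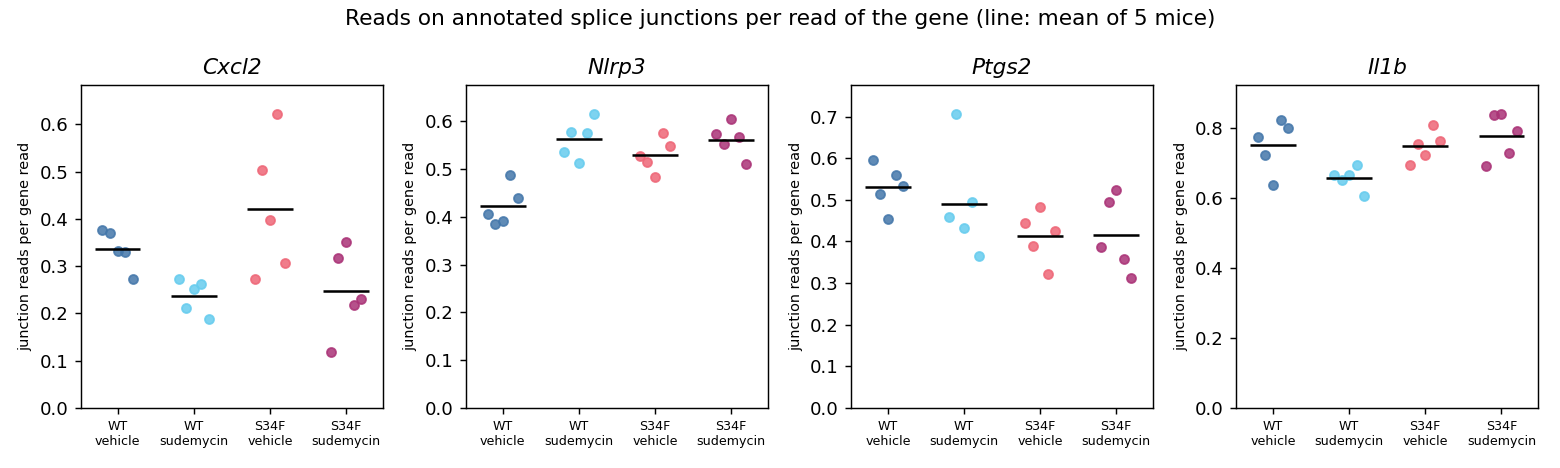
Reads on annotated splice junctions per read of the gene for Cxcl2, Nlrp3, Ptgs2 and Il1b, with a point for each mouse and a line for the mean of the 5 mice of a group. Nlrp3 lies lowest in vehicle-treated U2AF1(WT) mice, between 0.385 and 0.487, and the other 3 groups lie between 0.484 and 0.615.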

How the data were processed

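Total RNA of bone marrow from 20 mice, 5 per group, was depleted of ribosomal RNA and sequenced as stranded pairs of 126 bases. The authors aligned the reads to mm9 with TopHat 2.0.8 and deposited raw counts per gene and raw counts per splice junction, neither of them normalised. The counting program is not given in the sources used here. The deposited gene counts had a median of 51836276 and the junction counts a median of 52634698 per mouse, and gene symbols were found for 37205 of 37620 identifiers.

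Each comparison was fitted on its 10 mice with edgeR 4.0.16 (quasi-likelihood, TMM, filterByExpr) over all genes, and called at FDR<10% (Benjamini-Hochberg). CPM used library sizes scaled by TMM. The log2 ratio of each junction to the others at the same splice site, and of annotated junction reads to gene reads, was tested with limma 3.58.1 after adding 0.5, for sites with at least 10 reads per mouse on average, beside a two-sided exact permutation test. In the junction tests p-values were adjusted over the whole table. Scripts were tested on simulated data, in R 4.3.3 and Python 3.11.15. Motifs were searched on both strands of 200 bases of mm9.

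The 10 genes, the pathway and marker lists were chosen with earlier results of these data known. The text names the 10 genes, up to 3 called genes per list and comparison with the largest change and a mean of at least 1 CPM, the 5 genes most correlated with the mean of the 10 in each of 2 ways, every called splice choice, alternative first exons, and U2af1 with sex-linked transcripts. Further splice choices and single list genes outside this rule were chosen after their values were seen. Alternatives were DESeq2 1.42.0, its size factors, other filters on low counts, a prior count, autosomal genes only, 1 model of all mice, a replicate block, other offsets and leaving out each mouse.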

Additional observations from a re-analysis of the deposited data

Results flagged for a closer look

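Of 40 sets of 5 mice, that is 10 genes in 4 groups, 2 held a mouse far from the others by Dixon's test at the 95% level, which chance alone gives in about 1 of 20 sets. Cxcl2 was 24.5 CPM in U2AF1(S34F) vehicle mouse 1 and at most 5.24 CPM in the other 4 mice of that group, a gap of 0.880 of the range of the group. Il1rn was 38.3 CPM in U2AF1(WT) vehicle mouse 2 and at least 61.4 CPM in the other 4, a gap of 0.765 of the range.

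The drug effect on Atf3 differed between genotypes by 2.38 ± 0.30 on the log2 scale (interaction term in edgeR, FDR = 0.000994). Atf3 was called in this test in all 26 refits with other settings or without a mouse.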

How the results depend on the processing

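Of 885 recomputed log2 fold changes of the 10 genes 882 moved by less than 1 SD between mice and 0 changed sign among those called. The other 3 were of Il1a, at 0.62, 0.84 and 0.61 without U2AF1(WT) vehicle mouse 2. With the drug in U2AF1(WT) mice DESeq2 called 811 genes and 1 model of all mice 1072, against 453. In U2AF1(S34F) mice 1 model of all mice called 788 genes and 16 pathway genes, against 1588 and 28. For the interaction DESeq2 called 116 genes, no filter on low counts 10, a filter of 1 CPM in 5 mice 16 and autosomal genes only 1, against 2. The cause of these shifts was not tested. Leaving out each mouse gave 191 to 730 genes and 13 to 34 pathway genes for the drug in U2AF1(WT) mice, lowest without vehicle mouse 1 and highest without vehicle mouse 2 for genes. In U2AF1(S34F) mice it gave 913 to 1736 genes, lowest without sudemycin mouse 2, and 18 to 27 pathway genes. With the genotype it gave 4817 to 6943 and 62 to 87 under vehicle, and 4363 to 5796 and 69 to 86 under sudemycin D6. Between the extreme groups it gave 6421 to 8373 and 85 to 101, and for the interaction 2 to 87, highest without U2AF1(S34F) vehicle mouse 5.

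Among splice choices, in the order drug in U2AF1(WT), drug in U2AF1(S34F), genotype under vehicle, genotype under sudemycin D6 and extreme groups, an offset of 2 called 1, 5, 2, 1 and 3, and the exact permutation test gave 10, 5, 5, 6 and 3 at an unadjusted p under 0.05. Leaving out each mouse gave 0 to 0, 0 to 2, 0 to 1, 0 to 0 and 1 to 3. The Ccl4 choice itself was lost in 3 of the 10 fits of the extreme groups, where other choices made up the count. Requiring a mean of at least 1 read per mouse on both sides, chosen after seeing the data, left 0 for the drug in U2AF1(S34F) mice and 0 for the extreme groups, since those sites were no longer tested. Of junction reads per read, an offset of 2 called 2 genes with the genotype under sudemycin D6, as did a mean of at least 30 reads. The exact permutation test gave 5 with the genotype under vehicle, 2 under sudemycin D6 and 3 between the extreme groups, at an unadjusted p under 0.05. Leaving out each mouse gave 0 to 2, 0 to 0, 1 to 3, 1 to 2 and 1 to 2.

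The genotypes share some replicate numbers, and the labels do not say whether mice are paired by them. The deviations of same-numbered mice correlated at 0.129, 0.177 and −0.110 under vehicle and at −0.053, 0.277, 0.394 and −0.188 under sudemycin D6. These are too few to settle whether the mice are paired. With the replicate number as a block, 4623 genes and 75 pathway genes were called under vehicle and 3830 and 62 under sudemycin D6. The same mice without the block, a fit chosen after seeing the data, gave 5180 and 79, and 3947 and 60. Few reads at the rarer splice sites limit the splice results.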

Other observations

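Markers of other cell types differed between groups as follows. The 7 B cell markers had median summed levels of 117, 137, 46.8 and 42.4 CPM in vehicle- and sudemycin-treated U2AF1(WT) and vehicle- and sudemycin-treated U2AF1(S34F) mice. Between the extreme groups 7 of 7 were lower by edgeR, beside 25.1% of all genes. With the genotype under vehicle 0 of 7 passed by edgeR, by DESeq2 or at an unadjusted p of 0.05. The sums there ranged from 38.3 to 138 CPM in U2AF1(WT) and from 15.9 to 158 CPM in U2AF1(S34F) mice. Under sudemycin D6 4 of 7 fell with the genotype, beside 19.6%. Eosinophil markers had median sums of 242, 170, 207 and 105 CPM in the same order, and 2 of 3, Prg2 and Ear6, fell with sudemycin D6 in each genotype. In U2AF1(WT) mice Prg2 was called in 12 and Ear6 in 11 of 17 refits. Dendritic cell markers had median sums of 91.6, 75.9, 103 and 57.1 CPM, and 3 of 5 tested fell with sudemycin D6 in U2AF1(S34F) mice, Siglech among them in 9 of 17 refits. Megakaryocyte markers had median sums of 49.6, 33.0, 43.6 and 25.1 CPM, and 2 of 4 fell with the drug in U2AF1(S34F) mice, of which Pf4 was called in 7 of 17 refits.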
